A study of Mus musculus with 28 samples.

Results

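The antioxidant and glutathione enzyme genes are the genes that remove superoxide and peroxides, make and spend glutathione, and reduce oxidised thiols. They were taken as the protein-coding genes named Gpx, Prdx, Txn, Gst or Sod, together with Gclc, Gclm, Gsr, Gss, Cat, Nqo1, Hmox1, Hmox2 and Nfe2l2. A total of 54 of the 14888 genes listed in both cohorts met this rule, and Gstm2 met it in the social stress cohort alone, which made 55 there. Superoxide dismutases turn superoxide into hydrogen peroxide, which catalase, glutathione peroxidases and peroxiredoxins then remove. Glutathione and thioredoxin supply the electrons for the peroxidases and peroxiredoxins, and both are recycled with NADPH. The transcription factor NRF2, encoded by Nfe2l2, drives many of these genes under oxidative stress, and in brain the pathway is known to be strong in astrocytes, which supply neurons with glutathione precursors.

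Total RNA of frontal cortex, depleted of ribosomal RNA, was sequenced in 28 libraries, each from 1 male C57Bl/6 mouse, and 2 cohorts were set up with their own controls. The CSS group held 8 mice under chronic social stress, made up of 7 weeks of isolation with 2 confrontations per day in its last 20 days, and its CSS_control group held 8 mice, all 21 weeks old. The T2D group modelled type 2 diabetes in 6 mice by 75 mg/kg of the beta cell toxin streptozotocin and 21 weeks on food that drew 43.2% of energy from fat, and its T2D_control group held 6 mice, all 30 or 31 weeks old. The labels give no blood glucose or behaviour of the mice, and no housing or diet of the controls. The sum of estimated counts per library, in M, ranged for CSS from 15.2 to 21.9 and for CSS_control from 14.3 to 37.5. For T2D it ranged from 14.3 to 22.7 and for T2D_control from 12.1 to 21.6. The RNA integrity number was 9.0 to 10.0 in CSS and 9.3 to 10.0 in CSS_control, and 8.7 to 9.4 in T2D and 8.5 to 9.8 in T2D_control. All 10 markers of excitatory neurons, among them Slc17a7 and Camk2a, were measured in every library. Their summed level was 1563 to 2584 CPM (counts scaled to a common library total) in CSS and 1697 to 2505 in CSS_control, and 1184 to 2533 in T2D and 1706 to 2367 in T2D_control. The summed level of 10 striatal neuron markers varied more, at 1002 to 1657 CPM in CSS and 1108 to 2367 in CSS_control, and 343 to 2193 in T2D and 441 to 1921 in T2D_control. In bulk tissue, fewer cells of a type and less RNA per cell cannot be told apart.

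NRF2 binds antioxidant response elements, whose core was searched as TGACNNNGC on both strands of promoter windows that run from 250 bases before to 50 bases after a gene's start (RefSeq, GRCm38.p6). Of the 54 genes 45 were matched by symbol, and the others were Gclc, Gsr, Gsta4, Gstt2, Hmox1, Prdx6, Sod3, Txnl1 and Txnl4a. The core was in a window of 10 of the 45 genes (22.2%), beside 14.0% of all 27025 symbols in the RefSeq table, measured here or not. A gene can have several windows, and the core was in 10 of the 63 windows of these genes (15.9%), beside 12.4% of all 32851 windows. The sequences below show it for the classical NRF2 targets Gclm, Prdx1 and Txnrd1, for Nfe2l2 itself, and for Sod1 and Gstm5, which were among the genes of smallest p in CSS. The capitals mark the core, which reads as its reverse complement where it lies on the strand opposite to the gene, and each sequence is given in the direction of the gene.
Gclm, chr3:122245403-122245451, plus strand: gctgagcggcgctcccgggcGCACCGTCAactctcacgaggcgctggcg
Prdx1, chr4:116685446-116685494, plus strand: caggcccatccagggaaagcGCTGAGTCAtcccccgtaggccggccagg
Txnrd1, chr10:82859094-82859142, plus strand: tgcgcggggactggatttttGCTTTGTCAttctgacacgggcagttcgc
Nfe2l2, chr2:75704875-75704913, minus strand: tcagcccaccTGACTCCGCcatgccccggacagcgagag
Sod1, chr16:90220686-90220734, plus strand: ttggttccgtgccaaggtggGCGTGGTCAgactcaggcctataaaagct
Gstm5, chr3:107895792-107895840, plus strand: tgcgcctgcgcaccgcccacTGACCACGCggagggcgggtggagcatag
The centre of the core lay 130 bases before the start of Gclm, 129 before that of Prdx1, 88 before that of Txnrd1, 236 before that of Nfe2l2, 52 before that of Sod1 and 38 before that of Gstm5. Over the 10 genes with the core the log2 fold change lay between −0.15 and 0.13 in CSS (median −0.02, 7 negative) and between −0.16 and 0.19 in T2D (median 0.02, 5 negative), and none of them passed the test in either cohort. The windows of the other matched genes held no core, among them those of Nqo1, Gstm1, Gstp1, Gstz1, Prdx5, Gpx1 and Txnrd3. Sequence outside the windows was not searched. A match is a run of letters and was not tested for binding.

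Together the 54 genes made up 0.217% of all counts in CSS and 0.223% in CSS_control, and 0.219% in T2D and 0.222% in T2D_control, on the scale of TMM-normalised CPM. Levels between genes are compared as CPM per kb of merged exons. In CSS_control the highest were Gpx4, the peroxidase that reduces lipid hydroperoxides in membranes, at 108 CPM per kb, and the glutathione S-transferases Gstm5 (73.3), Gstp1 (56.0) and Gstm1 (50.5). The peroxiredoxins Prdx5 (46.2) and Prdx2 (41.8) and the cytosolic dismutase Sod1 (30.9) came next. Gpx4, Gstm5 and Gstp1 were also the top 3 in T2D_control, at 103, 65.2 and 59.3 CPM per kb. The inducible heme oxygenase Hmox1 was at 1.44 CPM per kb in CSS_control, against 24.1 for the constitutive Hmox2. Nqo1, a quinone reductase and common readout of NRF2, was at 2.09 CPM per kb and Nfe2l2 itself at 3.03. The extracellular dismutase Sod3 (0.673) and the transferases Gstt3 (0.572), Gstt2 (0.451) and Gsta3 (0.278) were lowest among the 54 genes in CSS_control. Sod2 had many exon bases in the annotation, so its level per kb (26.8) depends on which transcripts are used, while by CPM alone it was the highest of all (268 ± 11.5 CPM, SD, n = 8).

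**Figure D1:**
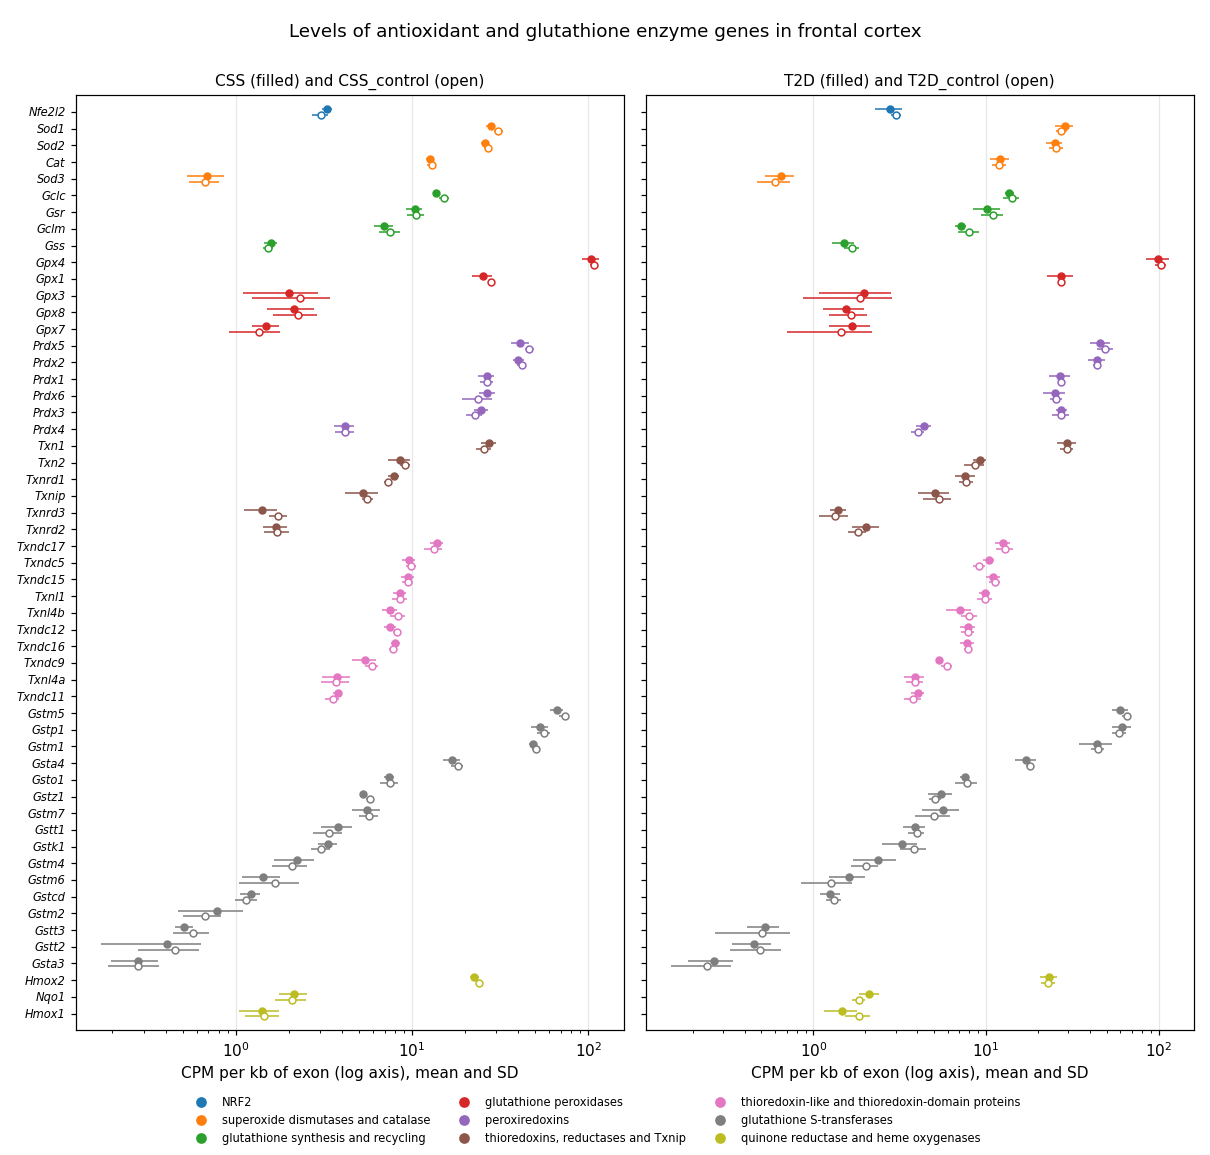
Level of each gene in CPM per kb of exon (x axis, log scale; mean and SD over libraries), in CSS and CSS_control at the left and T2D and T2D_control at the right, with treated groups as filled and controls as open circles, ordered by role. Levels run from 0.278 CPM per kb for Gsta3 to 108 for Gpx4 in CSS_control, and the filled and open circles of a gene lie close together.

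The comparison of CSS with CSS_control asked which of these genes differ in stressed mice. None of the 55 passed edgeR's quasi-likelihood test over all genes at an adjusted p of 0.05, while 4.52% of all 15097 genes did. The smallest adjusted p was 0.0841, of Gclc. At an unadjusted p under 0.05 there were 8 of the 55 (14.5%), beside 21.5% of all genes, 7 of them lower and 1 higher in CSS. The median log2 fold change was −0.03 over the 55 genes, of which 35 (63.6%) were negative and 20 positive. Over all genes it was 0.01, and 51.3% of all genes were positive. The CSS and CSS_control libraries overlapped in all 55 genes, whereas 0.609% of all genes had groups that did not overlap. For 51 of the 55 genes the 95% interval of the change lay within 1.5-fold in either direction, and for all 55 within 2-fold. The 4 genes with intervals beyond 1.5-fold were Gpx3, Gstm2, Gstm6 and Gstt2, whose mean levels lay between 1.12 and 4.21 CPM in CSS_control. DESeq2, which called 8.7% of all genes, called 2 of the 55, Sod1 and Gclc, both lower in CSS (4.62% of all genes were called lower).

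The comparison of T2D with T2D_control asked the same of the diabetic mice. None of the 54 passed, and neither did any of the 15054 genes (0.0%). The smallest adjusted p was 0.825. DESeq2 called 4 of all genes there and none of the 54. At an unadjusted p under 0.05 there were 2 of the 54 (3.70%), Txndc5 and Txndc9, beside 5.84% of all genes (879). The median log2 fold change was −0.01 over the 54 genes, of which 29 (53.7%) were negative and 25 positive. Over all genes it was 0.00, and 50.8% of all genes were positive. The groups overlapped in each of the 54 genes, beside 0.146% of all genes without overlap. The 95% interval lay within 1.5-fold for 44 of the 54 genes and within 2-fold for all 54.

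**Figure D2:**
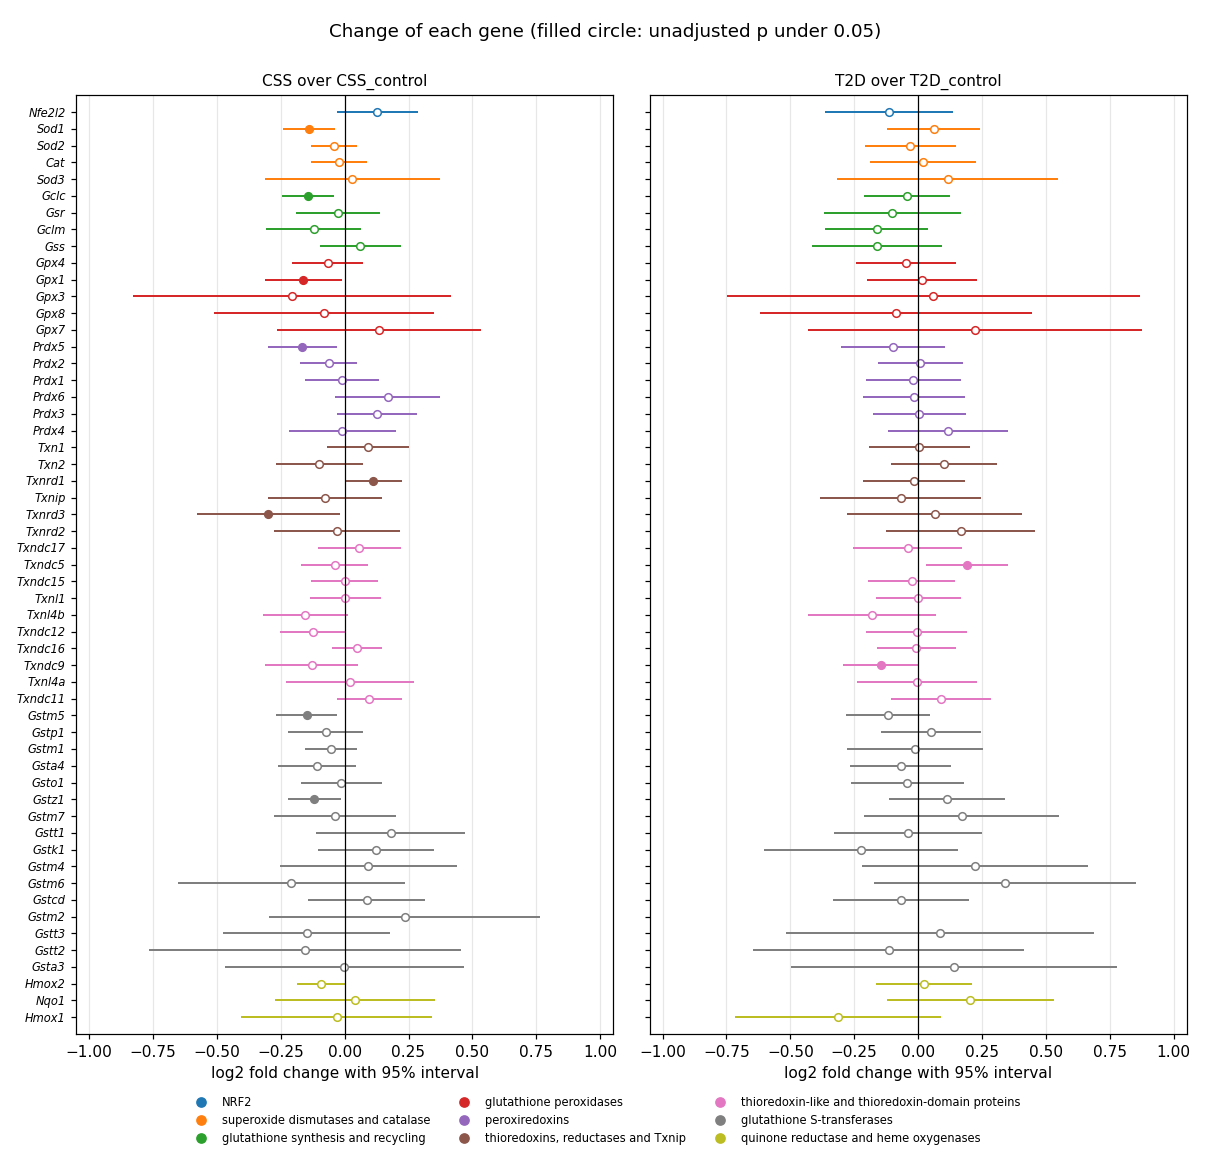
Log2 fold change of each gene with its 95% interval (x axis) in CSS over CSS_control at the left and in T2D over T2D_control at the right, coloured by role, with filled circles where the unadjusted p was under 0.05. The changes run from −0.30 (Txnrd3) to 0.23 (Gstm2) in CSS and from −0.31 (Hmox1) to 0.34 (Gstm6) in T2D, with 8 filled circles at the left and 2 at the right.

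Nfe2l2 (ENSMUSG00000015839, chromosome 2, 75675513 to 75704641, GRCm38) was measured at 11.2 to 13.5 CPM in CSS (median 12.5), against 10.0 to 13.7 CPM in CSS_control (median 11.5). It was at 8.87 to 13.8 CPM in T2D (median 9.94), against 10.3 to 12.5 CPM in T2D_control (median 11.4). The groups overlapped in both cohorts, although 7 of 8 CSS libraries lay above the mean of their controls and in T2D 4 of 6 libraries lay below the lowest control and 1 above the highest. Its log2 fold change was 0.13 ± 0.07 (SE) in CSS (edgeR adjusted p = 0.329) and −0.11 ± 0.12 in T2D (adjusted p = 0.890).

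Among the superoxide dismutases and catalase, Sod1 had the smallest p in CSS. Sod1 (ENSMUSG00000022982, chromosome 16, 90220754 to 90226329), the copper and zinc dismutase of the cytosol, was at 104 to 120 CPM in CSS (median 110), against 113 to 137 CPM in CSS_control (median 121). All 8 CSS libraries lay below the control mean and 5 below the lowest control. The log2 fold change was −0.14 ± 0.05 (95% interval −0.24 to −0.04, adjusted p = 0.0922), and it passed in DESeq2 (adjusted p = 0.0344). In T2D the level was 96.9 to 136 CPM (median 112), against 101.9 to 122 CPM in T2D_control (median 106), a log2 fold change of 0.06 ± 0.08 (adjusted p = 0.929). Sod2, the manganese dismutase of mitochondria, averaged 261 ± 12.9 CPM in CSS and 268 ± 11.5 in CSS_control (SD, n = 8 each), and 250 ± 26.0 CPM in T2D and 255 ± 24.2 in T2D_control (SD, n = 6 each). Its interval was among the narrowest, from −0.13 to 0.05 in CSS. Cat, the peroxisomal catalase, averaged 33.2 ± 1.66 CPM in CSS and 33.7 ± 1.88 in CSS_control, with an interval from −0.13 to 0.08, and 31.6 ± 4.08 CPM in T2D and 31.2 ± 3.01 in T2D_control. Sod3 was at 2.58 ± 0.611 CPM in CSS and 2.52 ± 0.477 in CSS_control, and at 2.43 ± 0.476 CPM in T2D and 2.25 ± 0.489 in T2D_control, with intervals that reach from −0.31 to 0.37 in CSS and to 0.54 in T2D.

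Among the 4 genes of glutathione synthesis and recycling, Gclc had the smallest p of all 55 genes in CSS. Gclc (ENSMUSG00000032350, chromosome 9, 77754535 to 77794485), the catalytic subunit of the enzyme that makes the rate-limiting step of glutathione synthesis, was at 48.5 to 54.0 CPM in CSS (median 51.6), against 52.0 to 62.7 CPM in CSS_control (median 57.2). All 8 CSS libraries lay below the control mean, and 4 below the lowest control. The log2 fold change was −0.14 ± 0.05 (95% interval −0.24 to −0.04, adjusted p = 0.0841), which stood at rank 1181 of all genes by p and passed in DESeq2 (adjusted p = 0.0293). In T2D it was at 47.8 to 55.8 CPM (median 51.2), against 46.7 to 60.6 CPM in T2D_control (median 52.7), inside the control range, with a log2 fold change of −0.04 ± 0.08 (adjusted p = 0.945). Gclm, the modifier subunit of the same enzyme, averaged 43.5 ± 5.46 CPM in CSS and 47.3 ± 6.30 in CSS_control (log2 −0.12 ± 0.09, adjusted p = 0.449). It averaged 44.9 ± 3.55 CPM in T2D and 50.3 ± 7.03 in T2D_control (log2 −0.16 ± 0.09, adjusted p = 0.832), below the control mean in 6 of 6 T2D libraries. Gss, glutathione synthetase, was at 9.39 ± 0.806 CPM in CSS and 9.01 ± 0.587 in CSS_control, and at 8.86 ± 1.24 CPM in T2D and 9.92 ± 0.979 in T2D_control. Gsr, which recycles oxidised glutathione, was at 28.5 ± 3.09 CPM in CSS and 29.0 ± 3.14 in CSS_control, and at 28.04 ± 4.96 CPM in T2D and 30.1 ± 4.49 in T2D_control.

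**Figure D3:**
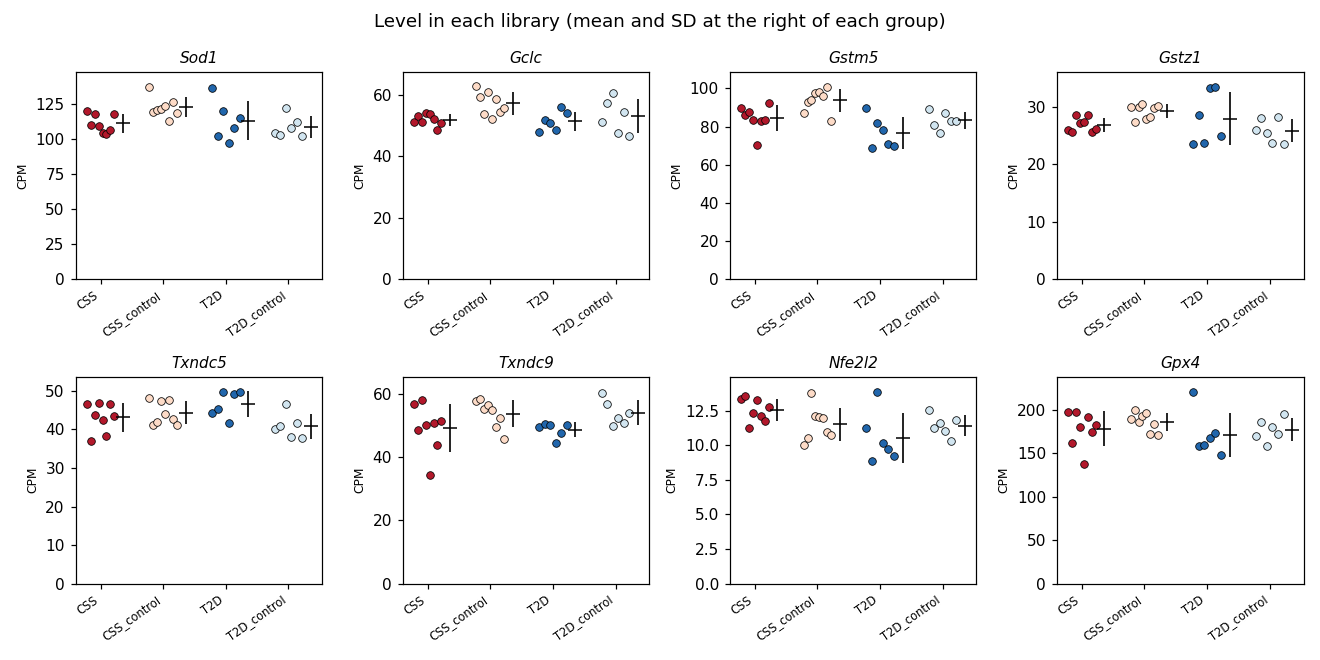
CPM in each library (y axis, from 0) for Sod1, Gclc, Gstm5, Gstz1, Txndc5, Txndc9, Nfe2l2 and Gpx4 in CSS, CSS_control, T2D and T2D_control, with the mean and SD beside each group. Sod1 and Gclc lie lower in CSS, with medians of 110 and 51.6 CPM, than in CSS_control, with 121 and 57.2 CPM, and the groups overlap in each panel.

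The glutathione peroxidases ranged widely in level and spread. Gpx4 was at 138 to 198 CPM in CSS (median 181), against 171 to 199 CPM in CSS_control (median 188), and at 148 to 221 CPM in T2D (median 164), against 158 to 196 CPM in T2D_control (median 176). The groups overlapped in both cohorts, with log2 fold changes of −0.07 ± 0.06 and −0.05 ± 0.09 (adjusted p = 0.593 in CSS and 0.948 in T2D). Gpx1, the cytosolic peroxidase of hydrogen peroxide, was at 27.8 to 43.8 CPM in CSS (median 37.02), against 37.8 to 43.0 CPM in CSS_control (median 41.3). Of the CSS libraries 4 lay below all controls and 1 above them, and the log2 fold change was −0.16 ± 0.07 (adjusted p = 0.190). Microglia are known to express Gpx1 strongly, and 5 of 16 microglial markers passed as lower in CSS, with a summed level of 223.6 to 427 CPM in CSS and 412 to 478 in CSS_control and no marker at 0 in any library. In T2D 0 of the 16 passed, and they summed to 212 to 405 CPM, against 248 to 425 CPM in T2D_control. The median log2 fold change of these markers was −0.30 in CSS and −0.42 in T2D. The part of microglia in the Gpx1 values was not tested. In T2D Gpx1 was at 29.1 to 49.4 CPM, against 37.9 to 40.4 CPM in T2D_control, so that the diabetic libraries lay on both sides of a narrow control range (log2 0.02 ± 0.10, adjusted p = 0.985). The secreted Gpx3 varied most from mouse to mouse, with a coefficient of variation of 45.5% in CSS and 46.7% in CSS_control, and 44.9% in T2D and 53.2% in T2D_control, and its interval reached from −0.82 to 0.41 in CSS. Gpx7 and Gpx8, peroxidases of the endoplasmic reticulum, lay under 4 CPM in every library and did not pass in either cohort.

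Of the 6 peroxiredoxins, Prdx5 had the smallest p in CSS. Prdx5, which sits in mitochondria, peroxisomes and cytosol, was at 74.5 to 102.4 CPM in CSS (median 85.8), against 93.7 to 110 CPM in CSS_control (median 96.6), with 5 CSS libraries below all controls. Its log2 fold change was −0.17 ± 0.06 in CSS (adjusted p = 0.132) and −0.10 ± 0.09 in T2D (adjusted p = 0.879), and 19.1% of its exon bases are shared with Trmt112 on the opposite strand. Prdx6, the astrocyte-rich peroxiredoxin that also repairs oxidised phospholipids, averaged 128 ± 12.8 CPM in CSS and 114 ± 21.5 in CSS_control (log2 0.17 ± 0.10, adjusted p = 0.329), with the CSS range inside that of the controls. It averaged 121 ± 17.6 CPM in T2D and 122 ± 9.39 in T2D_control. Of 14 astrocyte markers 2 passed as higher in CSS, Slc1a2 and Fgfr3, and Aldoc, Ntsr2, S1pr1 and Slc4a4 had negative changes (median log2 of the 14 0.13). The markers summed to 4716 to 5627 CPM in CSS and 4286 to 4933 in CSS_control, mostly through Slc1a2, which averaged 3043 and 2611 CPM. In T2D 0 of the 14 passed (median log2 −0.01), with sums of 3396 to 4625 CPM, against 3597 to 4769 in T2D_control. The part of astrocytes in the Prdx6 values was not tested. Prdx2, abundant in neurons and in red cells, averaged 122 ± 8.75 CPM in CSS and 127 ± 7.94 in CSS_control, and 134.3 ± 15.4 CPM in T2D and 133.6 ± 6.61 in T2D_control. The 5 measured red cell genes summed to 133.2 to 575 CPM in CSS and 101.9 to 231 in CSS_control, and their part in the Prdx2 values was not tested. Prdx1 averaged 80.6 ± 8.42 CPM in CSS and 81.2 ± 6.86 in CSS_control, and 81.9 ± 11.2 CPM in T2D and 83.1 ± 3.82 in T2D_control. The mitochondrial Prdx3 had a log2 fold change of 0.13 ± 0.07 in CSS (adjusted p = 0.335), and the endoplasmic reticulum enzyme Prdx4 one of 0.12 ± 0.11 in T2D (adjusted p = 0.878).

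The thioredoxin system reduces disulfides, with Txn1 and Txnrd1 in the cytosol and Txn2 and Txnrd2 in mitochondria. Txnrd1 was at 47.3 to 60.2 CPM in CSS (median 56.2), against 49.0 to 55.6 CPM in CSS_control (median 50.6). It was the only one of the 8 genes with an unadjusted p under 0.05 that was higher in CSS, where 4 libraries lay above all controls and 1 below them (log2 0.11 ± 0.05, adjusted p = 0.211). Txnrd3, a thioredoxin and glutathione reductase known from testis, was at 2.80 to 5.04 CPM in CSS (median 3.96), against 4.26 to 6.14 CPM in CSS_control (median 4.84), with 5 CSS libraries below all controls (log2 −0.30 ± 0.13, adjusted p = 0.192). In T2D the changes of both reductases were small, at −0.02 ± 0.09 for Txnrd1 and 0.06 ± 0.16 for Txnrd3. Txn1 averaged 28.6 ± 2.70 CPM in CSS and 26.9 ± 2.76 in CSS_control, and 30.9 ± 3.90 CPM in T2D and 30.9 ± 2.54 in T2D_control. Txnip, which binds thioredoxin and is induced by glucose in many cell types, was at 13.3 to 21.995 CPM in CSS (median 15.1), against 15.5 to 19.1 CPM in CSS_control (median 17.4). In T2D it was at 11.9 to 19.8 CPM (median 14.9), against 13.2 to 21.989 CPM in T2D_control (median 16.0). Of the CSS libraries 4 lay below all controls and 2 above them, and the T2D groups overlapped broadly. Its log2 fold changes were −0.08 ± 0.10 in CSS (adjusted p = 0.722) and −0.07 ± 0.15 in T2D (adjusted p = 0.951), with an interval from −0.38 to 0.24 in T2D. Of the exon bases of Txnip 19.4% are shared with Gm15441 on the opposite strand.

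The 10 proteins with a thioredoxin-like fold include enzymes of other kinds. In T2D the smallest p of all 54 genes was that of Txndc5, a disulfide isomerase of the endoplasmic reticulum. It was at 41.7 to 49.8 CPM in T2D (median 47.2), against 37.7 to 46.6 CPM in T2D_control (median 40.5). All 6 T2D libraries lay above the control mean and 3 above the highest control, a log2 fold change of 0.19 ± 0.07 (unadjusted p = 0.0197 and adjusted p = 0.825 in edgeR). In CSS it was at 36.96 to 46.8 CPM (median 43.5), against 41.1 to 48.2 CPM in CSS_control (median 43.4), a change of −0.04 ± 0.06 (adjusted p = 0.756). Txndc9, a cofactor of the chaperonin that folds actin and tubulin, was at 44.7 to 50.5 CPM in T2D (median 49.9), against 49.997 to 60.5 CPM in T2D_control (median 53.1), with all 6 T2D libraries below the control mean (log2 −0.15 ± 0.07, adjusted p = 0.825). In CSS it averaged 49.3 ± 7.53 CPM against 53.9 ± 4.36 in CSS_control (log2 −0.13 ± 0.09, adjusted p = 0.403). Txnl4a and Txnl4b, components of the splicing machinery, and the other 6 genes of this kind did not pass, with log2 fold changes of at most 0.10 in CSS and 0.09 in T2D and at least −0.15 in CSS and −0.18 in T2D, both of Txnl4b.

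The genes named Gst, after the glutathione S-transferases that join glutathione to electrophiles, were the largest group, with 16 genes in CSS and 15 in T2D. They were grouped by name, and not each need have this activity. Gstm5 (chromosome 3, 107895821 to 107898686) was at 70.2 to 92.4 CPM in CSS (median 84.8), against 83.0 to 100.7 CPM in CSS_control (median 94.9), and all 8 CSS libraries lay below the control mean (log2 −0.15 ± 0.06, adjusted p = 0.124). In T2D it averaged 76.7 ± 8.29 CPM against 83.3 ± 4.39 in T2D_control (log2 −0.12 ± 0.08, adjusted p = 0.838). Gstz1, which also isomerises maleylacetoacetate in tyrosine breakdown, was at 25.7 to 28.7 CPM in CSS (median 26.7), against 27.3 to 30.4 CPM in CSS_control (median 29.8). Here 6 CSS libraries lay below all controls (log2 −0.12 ± 0.05, adjusted p = 0.160), while in T2D 3 of 6 libraries lay above all controls and 1 below them (log2 0.11 ± 0.10, adjusted p = 0.879). Gstm1 averaged 71.7 ± 4.03 CPM in CSS and 74.4 ± 4.03 in CSS_control, and 65.0 ± 13.9 CPM in T2D and 65.5 ± 5.67 in T2D_control. Gstp1, the pi class enzyme, averaged 82.3 ± 8.75 CPM in CSS and 86.6 ± 7.79 in CSS_control, and 94.99 ± 12.2 CPM in T2D and 91.8 ± 8.32 in T2D_control. The mu class genes Gstm1, Gstm2, Gstm4, Gstm5, Gstm6 and Gstm7 lie side by side on chromosome 3 and are similar in sequence, so that reads may have been divided among copies and single values are uncertain. Of the exon bases of Gstm5 13.9% overlap 4933431E20Rik on the opposite strand. Over the Gst genes the log2 fold change ran from −0.21 (Gstm6) to 0.23 (Gstm2) in CSS, with 11 of 16 negative, and from −0.23 (Gstk1) to 0.34 (Gstm6) in T2D, with 8 of 15 negative.

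Heme oxygenases break down heme, and Hmox1 and Nqo1 are strongly induced when NRF2 is active. Hmox1 was at 1.31 to 3.30 CPM in CSS (median 2.57), against 1.96 to 3.48 CPM in CSS_control (median 2.33). In T2D it was at 1.88 to 3.37 CPM (median 2.47), against 2.42 to 3.88 CPM in T2D_control (median 3.25), with 3 T2D libraries below all controls. Its log2 fold changes were −0.03 ± 0.18 in CSS (adjusted p = 0.939) and −0.31 ± 0.19 in T2D (adjusted p = 0.838), and the interval in T2D reached from −0.71 to 0.08. Nqo1 was at 2.38 to 4.07 CPM in CSS (median 3.30), against 2.52 to 4.18 CPM in CSS_control (median 3.03). In T2D it was at 2.79 to 3.82 CPM (median 3.26), against 2.37 to 3.12 CPM in T2D_control (median 2.93), with 3 T2D libraries above all controls (log2 0.20 ± 0.15, adjusted p = 0.854). Hmox2 averaged 50.1 ± 2.72 CPM in CSS and 53.4 ± 1.96 in CSS_control (log2 −0.09 ± 0.04, adjusted p = 0.251), below the control mean in 8 of 8 CSS libraries. It averaged 51.5 ± 5.87 CPM in T2D and 50.7 ± 4.60 in T2D_control, and 40.2% of its exon bases are shared with Cdip1 on the opposite strand.

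Whether a gene changed differently in the cohorts was tested as the CSS change minus the T2D change over all 28 libraries. None of the 54 genes passed in edgeR or in DESeq2, beside 0.0806% of all 14888 genes (12) in edgeR. At an unadjusted p under 0.05 there were 3 of the 54 (5.56%), beside 12.4% of all genes. They were Txndc5, with a difference of −0.24 ± 0.09 log2 units (unadjusted p = 0.0147, adjusted p = 0.289 in edgeR), Gstz1 with −0.24 ± 0.10 (adjusted p = 0.332) and Sod1 with −0.21 ± 0.09 (adjusted p = 0.351). The next by p, Txnrd3 and Nfe2l2, had −0.37 ± 0.20 and 0.23 ± 0.13 (adjusted p = 0.445 and 0.472).

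Some libraries stood at the edge of their group over many of the genes. The library CSS 5 was the lowest of its group in 24 of the 54 genes, with a summed level of 1975 CPM, against 2127 to 2247 CPM in the other CSS libraries. The library T2D 1 was the highest of its group in 28 of the 54, with 2489 CPM, against 2053 to 2249 CPM in the other T2D libraries. The control sums were 2153 to 2308 CPM in CSS_control and 2116 to 2294 in T2D_control. The library CSS_control 2 was the lowest of its group in 17 of the 54 genes and had the most counts of all libraries (37.5 M). CSS 5 had the lowest RNA integrity number of the CSS and CSS_control libraries (9.0). How often these libraries were at the edge over all genes was not counted, so this may not be particular to the 54 genes. Without CSS 5, and without T2D 1, still none of the genes passed. The code in the sample titles, whose meaning is not given, was 3 or 4 in 6 CSS libraries and in 1 control, so it moves with the groups. The number 4 occurred in 3 CSS libraries and in no control, so these do not inform the group difference once the number is a factor. That fit then rests on 1 CSS library against 4 controls at number 1, 1 against 3 at number 2 and 3 against 1 at number 3. Its changes thus come from fewer libraries as well as from the factor. With its number as a factor the log2 fold changes in CSS were −0.12 for Gclc and −0.10 for Sod1 (adjusted p = 0.446 and 0.533), and 0.21 for Nfe2l2 and 0.19 for Txnrd1 (adjusted p = 0.376 and 0.208). Of 26 genes compared with and without this factor, 7 had a log2 fold change more than 1.5 times smaller with it, 8 one more than 1.5 times larger, 3 one of the other sign and 8 none of these. The smaller ones were Gpx1 (−0.07 with the factor, against −0.16 without), Gclm (−0.02, against −0.12), Txndc9 (−0.02, against −0.13), Prdx6 (0.10, against 0.17), Gstm5 (−0.09, against −0.15), Prdx2 (−0.03, against −0.06) and Gpx4 (−0.04, against −0.07). Those larger with the factor were Gss, Gsr, Cat, Gstm1, Prdx1, Txnip, Nfe2l2 and Txnrd1, and the sign turned for Hmox1 (0.08, against −0.03), Nqo1 (−0.12, against 0.04) and Sod3 (−0.12, against 0.03). None of the 26 passed in either fit.

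As a description of which genes vary with Nfe2l2, the log2 CPM of every gene was taken relative to its group mean. Over 28 libraries the 5 genes with the highest Pearson correlation to Nfe2l2 were Hsdl2 (0.71), Kctd14 (0.65), Fam171b (0.65), Ppp1r12b (0.64) and Glul (0.64). Among the other 53 antioxidant and glutathione enzyme genes the correlation ran from −0.39 (Gstz1) to 0.53 (Gstm1), with a median of 0.05, beside −0.02 over all genes. The points share library depth and tissue composition.

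Of 128 other genes of the pathway in 7 lists, 1 rose and 3 fell in CSS (3.125%, beside 4.52% of all genes) and none passed in T2D. In CSS 26 of the 128 had an unadjusted p under 0.05 (20.3%, beside 21.5% of all genes), and in T2D 8 (6.25%, beside 5.84%). Slc7a11, the cystine transporter that feeds glutathione synthesis and a classical NRF2 target, rose to 105 ± 15.5 CPM in CSS, against 79.5 ± 12.1 CPM in CSS_control (SD, n = 8 each; log2 0.40 ± 0.10, adjusted p = 0.0312). Slc7a11 is known to be strong in astrocytes, whose markers are given above, and their part in it was not tested. Sqstm1, the autophagy receptor p62 that binds the NRF2 inhibitor KEAP1, fell to 268 ± 12.2 CPM in CSS, against 305 ± 15.7 CPM in CSS_control (log2 −0.19 ± 0.04, adjusted p = 0.0203). These were 2 of 27 measured genes of NRF2 control and its other targets (median log2 −0.02).

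Of 26 glutaredoxin and thiol repair genes 1 fell, P4hb, the protein disulfide isomerase (76.1 ± 7.60 CPM in CSS and 89.1 ± 6.49 in CSS_control, log2 −0.23 ± 0.06, adjusted p = 0.0433). The median of that list was 0.00. Other disulfide isomerases in it went the other way without passing, Pdia3 with log2 0.11, Pdia4 with 0.19 and Pdia6 with 0.21 in CSS (edgeR adjusted p between 0.0904 and 0.279). Of 11 genes of selenoprotein synthesis 1 fell, Sephs2, which makes the selenium donor for the selenocysteine of glutathione peroxidases and thioredoxin reductases (29.0 ± 2.61 CPM in CSS and 33.6 ± 1.64 in CSS_control, log2 −0.21 ± 0.06, adjusted p = 0.0453). The median of that list was −0.03. None passed in CSS among 21 genes of glutathione precursors and breakdown (median log2 0.00) and 19 genes of NADPH supply (median 0.03). Nor did any of 12 genes listed with superoxide dismutase and catalase, namely copper and iron handling genes, peroxisomal import genes and Mtfr1 (median 0.12). The same held for 12 sources of reactive oxygen species (median 0.05). The smallest p in these lists were those of Anpep (log2 0.87, adjusted p = 0.0555), Rpe (log2 0.15, adjusted p = 0.165), Slc25a28 (−0.18, 0.0804) and Nos3 (0.27, 0.117). In T2D the smallest p of the 7 lists belonged to Ggt1, which cleaves extracellular glutathione, at 0.946 ± 0.245 CPM in T2D and 1.89 ± 0.400 in T2D_control (SD, n = 6 each; log2 −0.98 ± 0.24, unadjusted p = 0.000876, adjusted p = 0.825). Its T2D mean lay under the 1.01 CPM that every gene listed in that cohort reached in 6 libraries. Ggt1 may thus be listed through its controls, which favours a lower value in T2D. The other lists in T2D were led by Sesn2 (log2 −0.39), Mthfd2 (−0.36), Nos1 (0.34), Mtfr1 (0.35), Nqo2 (0.28) and Scly (−0.22), with adjusted p between 0.825 and 0.838. Sqstm1 still passed when any 1 of the 16 CSS and CSS_control libraries was left out. Slc7a11 did not in 6 of these 16 fits (adjusted p at most 0.0701), P4hb in 11 (at most 0.0892) and Sephs2 in 15 (at most 0.0900). With the title code number as a factor none of the 4 passed (adjusted p between 0.235 and 0.502), and with the replicate number as a block Sephs2 did not (adjusted p = 0.0968).

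**Figure D4:**
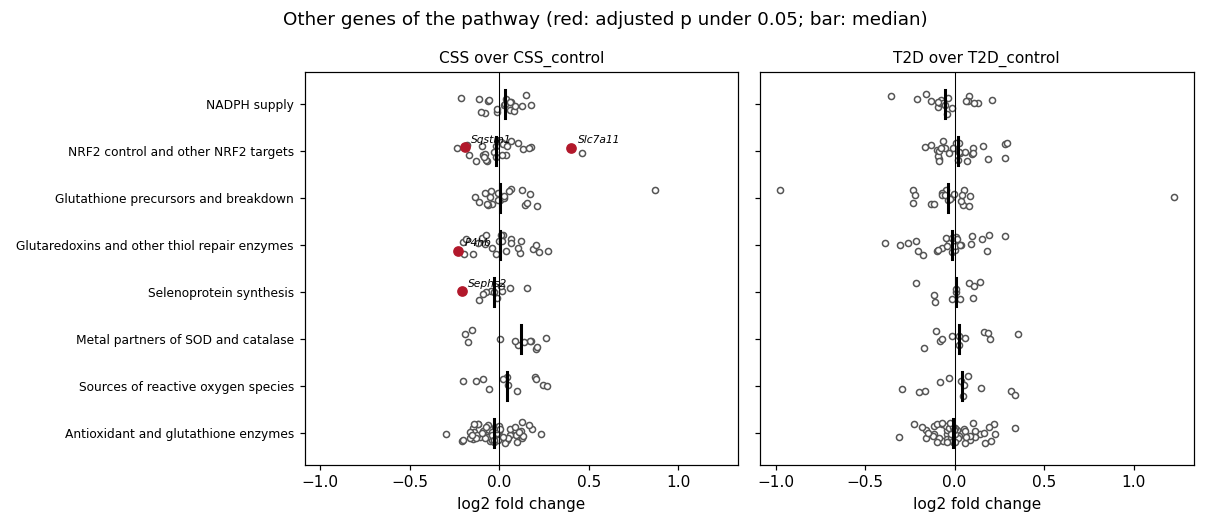
Log2 fold change (x axis) of single genes (circles) in 7 lists of other pathway genes and in the antioxidant and glutathione enzyme genes, with CSS over CSS_control at the left and T2D over T2D_control at the right. Bars mark each list's median and red circles the 4 genes with an adjusted p under 0.05, Slc7a11 higher and Sqstm1, P4hb and Sephs2 lower in CSS. The row labelled as metal partners also holds the peroxisomal import genes Pex5, Pex13 and Pex14, and Mtfr1.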

How the data were processed

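For each cohort the authors deposited 1 table with an estimated count per gene. These expected counts, which need not be whole numbers, were made by the authors with Salmon 1.1.0 on mm10, the tool and build named per the labels in the submitters' processing notes. The step from transcripts to genes, the strand setting and any filter were not given in those notes. Every listed gene reached at least 1.01 CPM in 8 libraries of the CSS table and 1.01 CPM in 6 of the T2D table. Genes that reach about 1 CPM in fewer libraries are therefore not analysed here. A listed gene can still lie lower in the other libraries, as Ggt1 did on average in T2D. Values were rounded to whole numbers and tested per cohort, treated against control, with edgeR 4.0.16 (robust quasi-likelihood, TMM, default low-count filter, which removed no gene) and Benjamini-Hochberg adjustment over all genes at 0.05. The CSS change minus the T2D change was fitted over all 28 libraries. Alternatives used DESeq2 1.42.0 and limma 3.58.1 under R 4.3.3, and the code was tested on simulated data. Intervals (95%) use the edgeR standard error and are not adjusted for the number of genes. Exon lengths, overlaps and coordinates are those of GENCODE M21, which held 99.8% of the identifiers. Where 2 identifiers of a pathway gene shared a symbol, that of the higher level was used. One item of these lists is not reported here and was left out of their counts. The labels describe separate mice, so the spread includes that between animals.

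The genes, lists, tests and alternatives were chosen with earlier results of these data known. Named in full were 22 fixed genes and the 3 of smallest p in each of the 3 comparisons (26 in all). Also named were, in each list and cohort, up to 5 pathway genes past the threshold or else the 1 of smallest p. The remaining genes whose values are given were chosen after these were seen.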

Additional observations from a re-analysis of the deposited data

Results flagged for a closer look

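Over 26 genes in 4 groups each, 104 sets of libraries were checked for a library far from the others of its group, and chance alone flags about 1 in 20 of them. In 4 sets a library stood apart. Gpx4 was at 220.6 CPM in T2D 1, against 148 to 173 CPM in the other T2D libraries. Gstm5 was at 70.2 CPM in CSS 5, against 83.1 to 92.4 CPM in the other CSS libraries. Txn1 was at 23.0 CPM in CSS 5, against 27.7 to 31.9 CPM in the others. Prdx6 was at 140.6 CPM in T2D_control 1, against 114 to 122 CPM in the other controls. None of these 26 genes passed the test of the difference between the cohorts.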

How the results depend on the processing

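None of the genes passed in CSS, in T2D or in the difference between cohorts under all alternatives run but 1. With DESeq2 2 genes passed in CSS (Gclc and Sod1). With each library left out in turn the number was 0 to 0 in CSS, T2D and the difference. These alternatives were other size factors (RLE, upper quartile), DESeq2, limma-voom, no filter, a mean of at least 5 CPM, RIN as a covariate, the title code number in CSS, 1 fit over 28 libraries and the replicate block. Libraries of 2 groups share replicate numbers, and in CSS also the title code numbers 1, 2 and 3, with no label that says what either marks. Pairs with the same replicate number had a correlation above 0.1 in 3 of 8 cases in CSS and 1 of 6 in T2D. With the replicate number as a block 0 genes passed in each comparison, and 2 of 8 CSS and 0 of 6 T2D libraries correlated best with their own replicate number. Over all genes, calls in CSS fell to 2 with the title code number, against 683 without it and 222 to 794 with 1 library left out, so the call rate set beside the genes depends on this choice. The fit with that number compares fewer libraries, since the number 4 occurs in CSS alone, and the fall in calls cannot be told apart from this loss. With DESeq2 it was 1313 there, and 4 in T2D against 0. For the difference between cohorts it was 12, against 130 with DESeq2, 32 with the block, 24 at a mean of at least 5 CPM, 6 with upper-quartile scaling, 0 with RIN or limma-voom and 0 to 32 with 1 library left out. The number of antioxidant and glutathione enzyme genes at an unadjusted p under 0.05 in CSS was 8, against 4 with the title code number and 6 to 10 under the other alternatives. Over all genes tested it was 3245, against 2006 with the title code number and 2796 to 3379 under the other alternatives. In T2D 2 of the antioxidant and glutathione enzyme genes had such a p, against 0 to 6 under the alternatives, with 6 without T2D 1. Over all 15054 genes the number was 879, and it also rose without T2D 1, to 1817. Over the 26 genes of the named set, the sign of the log2 change under an alternative differed in 22 of 673 values in CSS (5 genes), 42 of 543 in T2D (12 genes) and 56 of 933 in the difference (12 genes). Genes of low level or of wide spread between mice had the widest intervals, such as Gpx3, from −0.75 to 0.86 in T2D, and smaller changes of these were not detectable.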
